A study of Mus musculus with 8 samples.

Results

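The 10 genes A2m, Aoc3, Grin1, Copz2, Kcng1, Sncb, Nxph4, Cela1, Ppp1r1b and Tspan1 were followed across 8 RNA sequencing libraries of mouse embryonic stem cells. These 10 were chosen by their measured response to ganciclovir (GANC), for a large drop with the drug in HSVTK cells or a large gain in Control cells, out of 17976 genes tested and 57010 genes in the count table. The groups were Control with the solvent DMSO, Control with GANC, HSVTK with DMSO and HSVTK with GANC, with 2 libraries each. HSVTK cells carry a reporter, named 2C::HSVTK, that places the thymidine kinase of herpes simplex virus in cells resembling the 2-cell embryo, and GANC is meant to kill the cells that make this enzyme. The sources used here do not give what the Control cells carry, the dose, the duration or whether a line is 1 clone. The labels name no separate cultures for the 2 libraries of a group, so a p-value here measures the spread between libraries, which may be technical.

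Total counts per library were 29704460 to 34184475. The stem cell markers Pou5f1, Sox2 and Nanog were high in all groups, with group means of 357 to 688 CPM (counts scaled to library size with TMM factors). Zscan4c is a gene of the 2-cell-like state that the drug should deplete in HSVTK cells. It averaged 4.15 ± 0.786 CPM (SD, n = 2) in the HSVTK DMSO libraries and 8.70 ± 0.247 in those labelled HSVTK GANC, the reverse of a depletion. Control libraries averaged 4.67 ± 0.799 with DMSO and 4.57 ± 0.602 with GANC. The reason was not tested, and whether the labels are right was not settled. Directions between the HSVTK groups therefore rest on libraries as labelled. If the treatment labels of the HSVTK libraries were exchanged, every change with GANC in HSVTK cells given here would take the opposite sign, and all 10 genes would be higher with GANC in both cell groups, A2m by 3.16 and Aoc3 by 2.36 on the log2 scale in HSVTK cells. The average of HSVTK against Control cells over both treatments would not change. The libraries labelled HSVTK GANC also had the highest mitochondrial share of counts, 3.45 and 3.56% against at most 3.17% in the others.

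A2m, Aoc3 and Cela1 act outside the cell or at its surface on proteins and amines, and are known from plasma, vessels and fat, and glands. Grin1, Sncb, Nxph4 and Ppp1r1b belong to synapses or to signalling in neurons, and Kcng1, Copz2 and Tspan1 encode a channel subunit, a vesicle coat subunit and a membrane organiser. Their levels were low to moderate. The mean FPKM, which scales the count by gene length and library total, was 0.221 to 2.47 over the 8 libraries, and the median of tested genes was 2.32. In HSVTK DMSO, where all 10 had their highest mean, A2m led with 7.13 FPKM, followed by Nxph4 with 3.48, Sncb with 1.35, Cela1 with 1.34, Grin1 with 1.11 and Copz2 with 0.966. Below these were Ppp1r1b with 0.770, Tspan1 with 0.682, Aoc3 with 0.567 and Kcng1 with 0.460.

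A2m (ENSMUSG00000030111, chromosome 6) encodes alpha-2-macroglobulin, a secreted trap for proteases that the receptor Lrp1 clears. It had 2.77 and 2.80 CPM in Control DMSO, 12.8 and 9.35 in Control GANC, 49.0 and 51.0 in HSVTK DMSO and 3.65 and 7.50 in HSVTK GANC. No 2 groups overlapped, and the order from low to high was Control DMSO, HSVTK GANC, Control GANC, HSVTK DMSO. With GANC it was 8.92-fold lower in HSVTK cells, a log2 change of -3.16 ± 0.17 (SE), and 3.98-fold higher in Control cells, a log2 change of 1.99 ± 0.21. The 2 libraries of HSVTK GANC differed, with 115 and 251 counts, and the change in HSVTK cells was -3.79 without the second and -2.74 without the first. As the choice of genes used both drug comparisons, these changes and those below are a description with no test.

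Aoc3 (ENSMUSG00000019326, chromosome 11) encodes vascular adhesion protein 1, a copper amine oxidase of the cell surface. It stood at 0.185 and 0.444 CPM in Control DMSO, 1.52 and 1.63 in Control GANC, 2.43 and 2.80 in HSVTK DMSO and 0.444 and 0.568 in HSVTK GANC. Both drug responses were about equal in size: -2.36 ± 0.39 on the log2 scale in HSVTK cells and 2.33 ± 0.44 in Control cells. Control DMSO and HSVTK GANC were its low groups and their libraries did not separate, while Control GANC and HSVTK DMSO each stood apart. Without Control DMSO replicate 2 the gain in Control cells was 3.07, and without replicate 1 it was 1.82. Control DMSO held 19 counts in both libraries together, with an exact 95% Poisson interval of 11.4 to 29.7 that covers counting error only.

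Cela1 (ENSMUSG00000023031, chromosome 15), a serine protease of the elastase family, gave 0.646 and 0.479 CPM in Control DMSO, 1.87 and 1.33 in Control GANC, 3.43 and 2.75 in HSVTK DMSO and 1.84 and 1.41 in HSVTK GANC. Both GANC groups overlapped and lay between the DMSO groups. Its change was -0.93 ± 0.30 on the log2 scale in HSVTK cells and 1.50 ± 0.36 in Control cells, so the gain in Control cells was the larger one.

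Grin1 (ENSMUSG00000026959, chromosome 2) encodes the subunit that every NMDA-type glutamate receptor needs. It had 1.45 and 2.19 CPM in Control DMSO, 4.91 and 3.95 in Control GANC, 9.94 and 11.7 in HSVTK DMSO and 1.97 and 1.79 in HSVTK GANC. The HSVTK GANC libraries lay within the range of Control DMSO, and the other groups were separate. The log2 change with GANC was -2.52 ± 0.20 in HSVTK cells and 1.30 ± 0.22 in Control cells. Grin1os, a gene on the other strand that shares 1307 exon bases with Grin1 in GENCODE vM21, had 0 to 11 counts per library. The sources used here do not say whether counting used strand, so reads of the 2 genes cannot be told apart.

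Sncb (ENSMUSG00000034891, chromosome 13), the beta-synuclein of nerve endings, stood at 0.585 and 0.684 CPM in Control DMSO, 1.07 and 1.36 in Control GANC, 3.18 and 2.60 in HSVTK DMSO and 0.476 and 0.478 in HSVTK GANC. Its 4 groups did not overlap, and HSVTK GANC was the lowest. The log2 change was -2.59 ± 0.37 in HSVTK cells and 0.93 ± 0.38 in Control cells.

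Nxph4 (ENSMUSG00000040258, chromosome 10), a neurexophilin, belongs to a family of secreted proteins known for binding to neurexins at synapses. It had 0.554 and 0.821 CPM in Control DMSO, 1.64 and 0.862 in Control GANC, 5.30 and 6.34 in HSVTK DMSO and 1.97 and 1.61 in HSVTK GANC. The Control GANC libraries were wide apart and overlapped with HSVTK GANC. Its log2 change was -1.70 ± 0.27 in HSVTK cells and 0.88 ± 0.35 in Control cells. The latter was 0.35 without Control GANC replicate 1.

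Ppp1r1b (ENSMUSG00000061718, chromosome 11) encodes DARPP-32, an inhibitor of protein phosphatase 1 known from dopamine-responsive neurons. It showed 0.308 and 0.615 CPM in Control DMSO, 1.28 and 1.86 in Control GANC, 2.46 and 2.04 in HSVTK DMSO and 0.571 and 1.32 in HSVTK GANC. HSVTK GANC overlapped with both Control groups. The log2 change was -1.24 ± 0.39 in HSVTK cells and 1.77 ± 0.44 in Control cells. Without HSVTK GANC replicate 2, the higher of that group, the change in HSVTK cells was -1.98, and without replicate 1 it was -0.78. The gain in Control cells was 2.34 without Control DMSO replicate 2.

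Kcng1 (ENSMUSG00000074575, chromosome 2), a silent potassium channel subunit that works only with partner subunits, had 0.831 and 0.513 CPM in Control DMSO, 0.625 and 1.36 in Control GANC, 1.78 and 2.37 in HSVTK DMSO and 0.412 and 0.120 in HSVTK GANC. Its log2 change was -2.96 ± 0.51 in HSVTK cells. In Control cells it was 0.54 ± 0.48, the groups overlapped, and without Control GANC replicate 2 the value was -0.11, so its gain rested on 1 library. HSVTK GANC held 17 counts in all (interval 9.9 to 27.2), and the drop in HSVTK cells was -4.08 without its replicate 1 and -2.33 without its replicate 2.

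Copz2 (ENSMUSG00000018672, chromosome 11), the zeta-2 subunit of the COPI coat of Golgi vesicles, had 0.985 and 0.239 CPM in Control DMSO, 1.34 and 0.995 in Control GANC, 1.84 and 2.42 in HSVTK DMSO and 0.412 and 0.239 in HSVTK GANC. Its Control DMSO libraries, with 32 and 7 counts, differed the most of its 4 groups, and spanned HSVTK GANC. The log2 change was -2.70 ± 0.50 in HSVTK cells and 0.91 ± 0.47 in Control cells. The latter was 2.28 without Control DMSO replicate 1 and 0.26 without replicate 2. Mir152, a microRNA gene inside Copz2, had 0 counts in every library.

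Tspan1 (ENSMUSG00000028699, chromosome 4), a tetraspanin that organises membrane proteins, had 0.492 and 0.376 CPM in Control DMSO, 1.28 and 1.29 in Control GANC, 2.15 and 1.02 in HSVTK DMSO and 1.08 and 1.08 in HSVTK GANC. The gain in Control cells was 1.55 ± 0.45 on the log2 scale. In HSVTK cells the change was -0.55 ± 0.39 and the groups overlapped, since HSVTK DMSO replicate 2 was below both HSVTK GANC libraries. Without HSVTK DMSO replicate 1 the value was 0.06, so for Tspan1 the drop rested on 1 library.

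**Figure D1:**
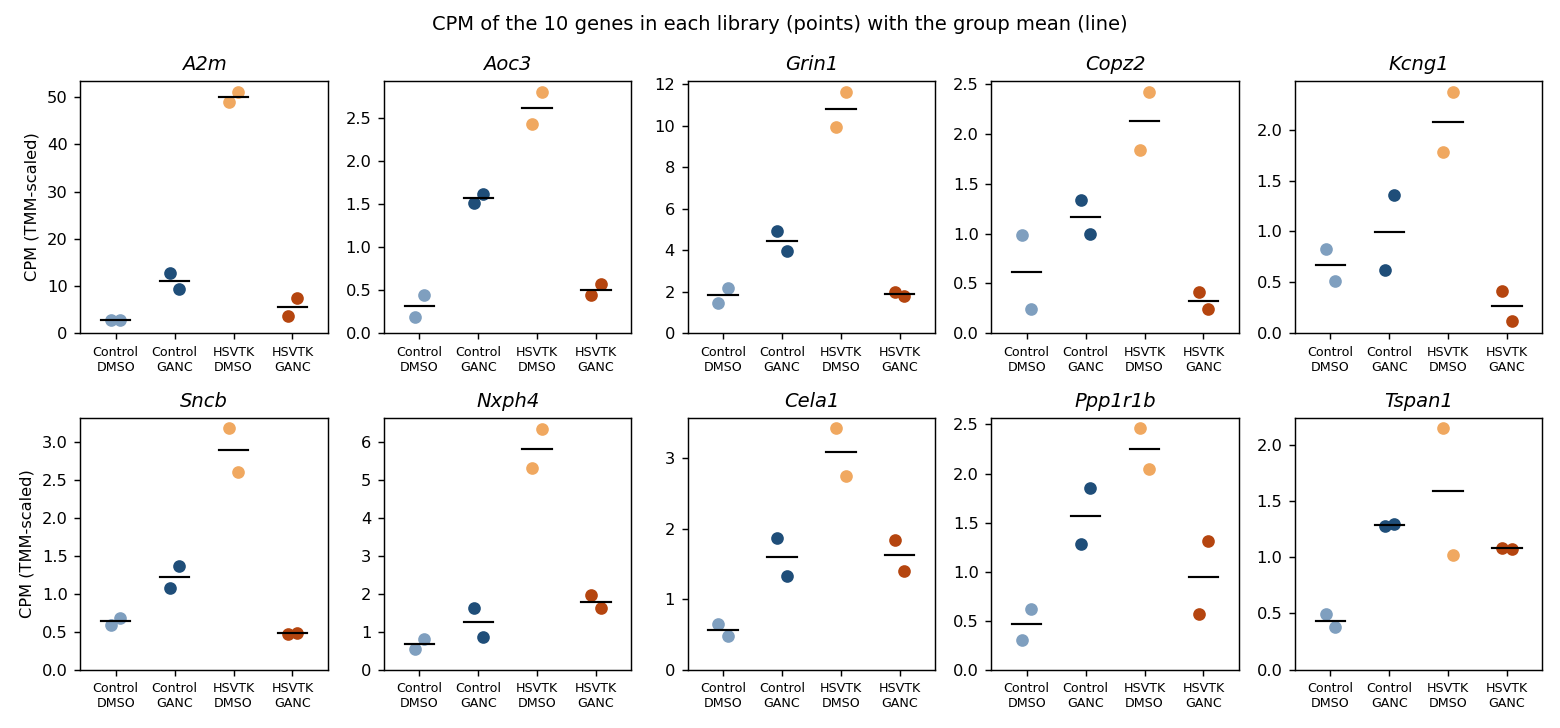
CPM of each gene in each library (points, 2 per group) with the group mean (line), on linear axes that start at 0 and differ between panels. HSVTK DMSO has the highest mean in all 10 panels, and the 2 HSVTK DMSO libraries of Tspan1 lie at 2.15 and 1.02 CPM.

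Among the 10 genes, 9 had both HSVTK GANC libraries below both HSVTK DMSO libraries (31.9% of tested genes), 9 had both Control GANC libraries above both Control DMSO libraries (25.0%), and 8 had both patterns (11.8%). The exceptions were Tspan1 in HSVTK cells and Kcng1 in Control cells. The choice of genes fixed these counts, and nothing is read from them. The median log2 change of the 10 was -2.44 in HSVTK cells, where the median of all tested genes was 0.01, and 1.4 in Control cells, where it was 0.00. Under DMSO, both HSVTK libraries of all 10 genes exceeded both Control libraries (33.7% of tested genes). Under GANC, 0 did (30.2%), and 7 had both HSVTK libraries below both Control libraries (29.4%): A2m, Aoc3, Grin1, Copz2, Kcng1, Sncb and Tspan1. The ranking by cell group was thus turned around in these 7. For Tspan1 the 95% Poisson intervals of the summed GANC counts overlapped, at 54.6 to 88.4 in HSVTK and 65.2 to 102 in Control cells. These group comparisons use the same libraries as the choice and were not tested.

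Over the 8 libraries, the log2 CPM of the 45 pairs of these genes correlated with a Pearson r of 0.273 to 0.962 and a median of 0.768. The pairs share libraries and were chosen for like responses, so this range is a description.

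**Figure D2:**
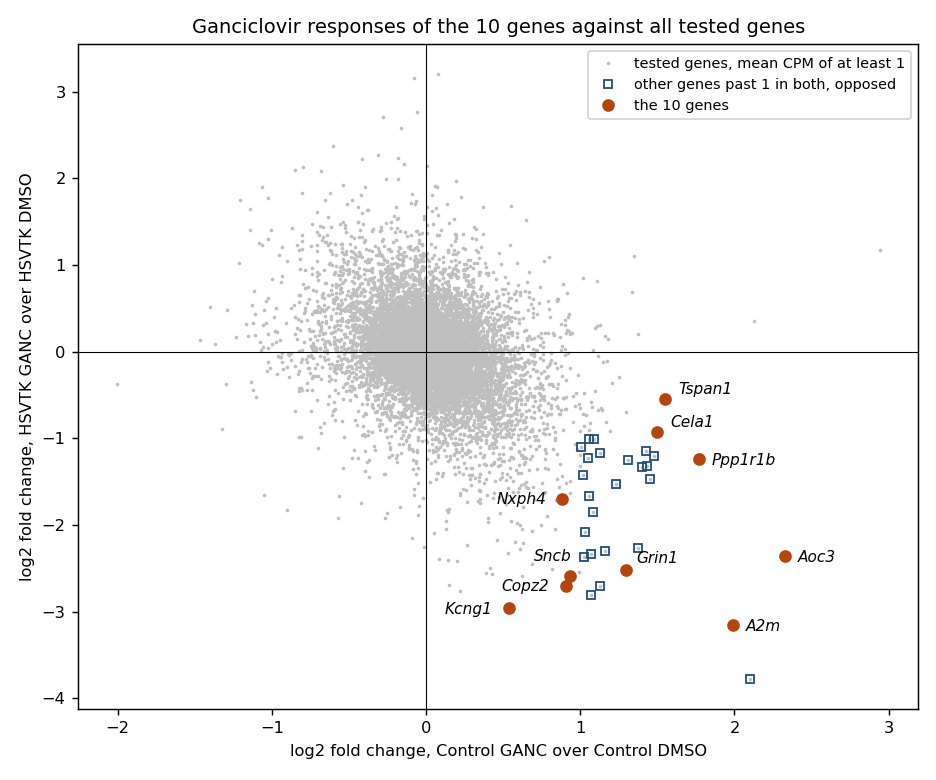
Log2 fold change with GANC in Control cells (x axis) and in HSVTK cells (y axis) for tested genes whose mean CPM was 1 or more (grey points), the 10 genes (orange circles, named) and the 23 other genes at -1 or lower in HSVTK and 1 or higher in Control cells (blue squares). A2m and Aoc3 lie at the lower right edge, Kcng1 at 0.54 on the x axis and Tspan1 at -0.55 on the y axis.

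One comparison does not share its direction with the choice of genes: HSVTK minus Control cells averaged over DMSO and GANC. Its weights are orthogonal to both drug comparisons, but it uses the same libraries as the choice. It is independent of the choice only as far as errors are equal between groups, and low counts make them unequal. The p-values below carry this limit. In this comparison 6 of the 10 genes were higher in HSVTK cells (15.9% of tested genes were called higher) and 0 were lower (18.3%). At an unadjusted p below 0.05, and with DESeq2, 0 were lower as well. Nxph4 was higher by 1.79 ± 0.22 on the log2 scale (SE, edgeR adjusted p = 1.64e-07), A2m by 1.59 ± 0.14 (adjusted p = 2.91e-10), Cela1 by 1.23 ± 0.23 (adjusted p = 0.000131) and Grin1 by 0.67 ± 0.15 (adjusted p = 0.00101). These 4 kept an adjusted p of at most 0.0262 in every other setting and with any 1 library left out. Tspan1, at 0.80 ± 0.30 (adjusted p = 0.0382), and Ppp1r1b, at 0.79 ± 0.30 (adjusted p = 0.04), also passed.

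The calls of Tspan1 and Ppp1r1b did not last. That of Tspan1 was lost with DESeq2 (adjusted p = 0.0712), with limma on log2(FPKM + 1) (0.104) and on log2(FPKM + 0.1) (0.0659), and without HSVTK DMSO replicate 1 (0.306), Control DMSO replicate 2 (0.109), either Control GANC library (0.066 and 0.0612) or either HSVTK GANC library (0.0759 and 0.0821). That of Ppp1r1b was lost with DESeq2 (0.0742), with limma (0.0873 and 0.111), and without HSVTK GANC replicate 2 (0.387), Control DMSO replicate 1 (0.182), either HSVTK DMSO library (0.113 and 0.0501) or Control GANC replicate 1 (0.105). Aoc3 stood at 0.72 ± 0.30 (adjusted p = 0.0642), and passed without Control DMSO replicate 2 (0.0198) and with limma on log2(FPKM + 1) (0.0294). Sncb stood at 0.42 ± 0.27 (adjusted p = 0.248) and passed with limma on log2(FPKM + 1) (0.0126). Copz2, at -0.03 ± 0.32 (adjusted p = 0.952), and Kcng1, at -0.14 ± 0.35 (adjusted p = 0.806), missed the threshold in every setting, which does not show that the cell groups were equal. The 6 calls describe an average over treatments: both HSVTK libraries were above both Control libraries for all 10 genes under DMSO and for 0 under GANC.

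**Figure D3:**
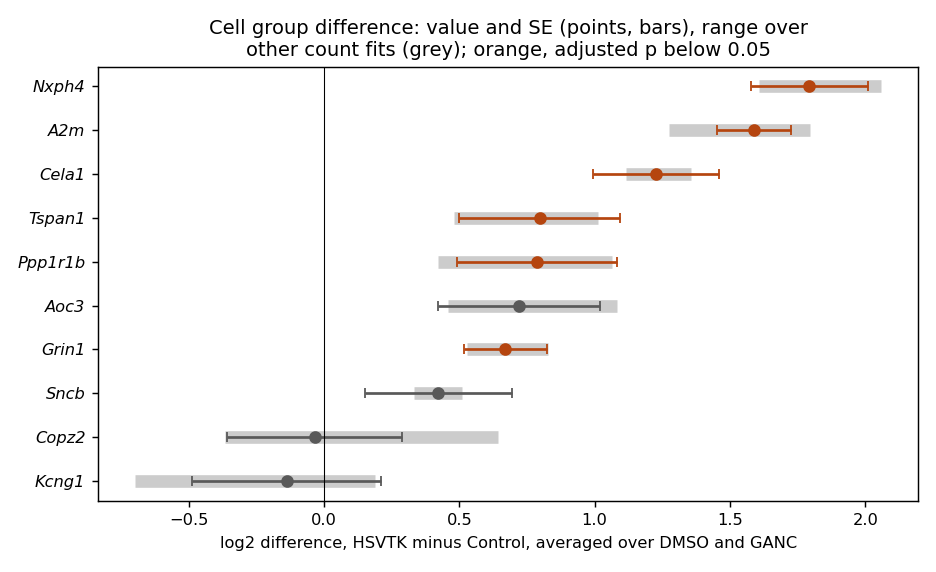
Log2 difference between HSVTK and Control cells, averaged over DMSO and GANC, for each gene (points) with its SE (bars) and the range over the other fits to counts (grey). Orange marks an adjusted p below the threshold of 0.05. Nxph4, A2m, Cela1 and Grin1 lie above 0 over the whole grey range, and Copz2 and Kcng1 span 0.

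RefSeq promoters on GRCm38.p6 were at hand for 5 of the 10 genes: Grin1, Tspan1, Copz2, Sncb and Cela1. The 250 bases before the transcription start were searched on both strands for ACGTG, the core bound by hypoxia-inducible factors, because the other strongly opposed genes listed below include oxygen-sensitive ones. ACGTG occurred in 3 of the 5, Grin1, Copz2 and Sncb, and in 16.6% of 32851 such windows. The motif holds a CpG, and these 3 windows had more CpG than the median window. The 2 shares are therefore not a like comparison, and nothing is read from them. These 3 are printed 5′ to 3′ with the match in capitals.

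Grin1 (chr2:25319188-25319437, minus strand): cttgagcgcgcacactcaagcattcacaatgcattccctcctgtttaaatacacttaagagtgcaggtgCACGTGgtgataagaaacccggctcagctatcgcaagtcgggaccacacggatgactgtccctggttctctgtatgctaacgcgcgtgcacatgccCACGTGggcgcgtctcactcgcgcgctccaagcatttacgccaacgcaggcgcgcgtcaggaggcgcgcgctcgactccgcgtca
Copz2 (chr11:96849626-96849875, plus strand): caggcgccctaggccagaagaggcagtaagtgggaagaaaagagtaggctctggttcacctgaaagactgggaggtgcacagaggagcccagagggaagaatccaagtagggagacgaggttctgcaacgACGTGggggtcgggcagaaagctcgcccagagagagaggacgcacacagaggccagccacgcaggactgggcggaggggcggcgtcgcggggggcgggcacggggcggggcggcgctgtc
Sncb (chr13:54766596-54766845, minus strand): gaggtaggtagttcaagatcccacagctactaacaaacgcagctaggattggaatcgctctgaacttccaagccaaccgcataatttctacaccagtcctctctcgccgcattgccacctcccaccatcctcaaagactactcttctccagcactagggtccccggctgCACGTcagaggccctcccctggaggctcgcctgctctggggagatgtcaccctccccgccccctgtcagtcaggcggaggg

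In Grin1 the core lay at both places inside CACGTG, the E-box motif. It is a palindrome that reads the same on either strand, with first bases 181 and 85 bases before the start. CACGTG occurred in 6.02% of windows. The core started 120 bases before the start of Copz2 and 81 before that of Sncb, where it is read on the other strand and printed as CACGT. CpG dinucleotides numbered 27 in Grin1, 18 in Copz2 and 10 in Sncb against a median of 6 and an upper quartile of 16 over all windows, while Cela1 had 6 and Tspan1 had 3. Cela1 was the only one of the 5 with TATAAA, the TATA box, which 12.4% of windows held. It is in capitals here, 27 bases before the start.

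Cela1 (chr15:100687921-100688170, minus strand): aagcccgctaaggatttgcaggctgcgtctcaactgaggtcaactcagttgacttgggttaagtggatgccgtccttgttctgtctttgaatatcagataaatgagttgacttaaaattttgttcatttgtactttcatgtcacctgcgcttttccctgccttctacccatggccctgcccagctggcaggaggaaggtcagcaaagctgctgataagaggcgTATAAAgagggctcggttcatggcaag

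TTCNNNGAA, the motif of STAT factors, was in none of the 5 windows (7.02% of all), nor was TTCAGCACC, the left part of the element bound by the neuronal repressor REST (0.301% of all). Matches of letters are not binding sites, and binding was not measured.

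Relatives of the 10 genes, listed by family, were not part of the choice of the 10, and each was tested. The family lists were drawn up with earlier results of these data known, so their counts are a description. Of 84 tested relatives in 10 families, 22 fell and 10 rose with GANC in HSVTK cells (of all tested genes 15.2% were lower and 13.3% higher), with a median of -0.05. In Control cells 7 rose and 3 fell (4.73 and 3.35% of all), with a median of -0.01. The difference of responses was lower for 19 and higher for 15 (14.0 and 11.6% of all). The relatives that fell in HSVTK cells and rose in Control cells, as the 10 genes did for the most part, were Lrp1, Loxl2, Ppp1r2, Tspan4 (-0.47 and 0.30) and Tspan9.

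Of 6 tested relatives of A2m, 2 fell and 2 rose in HSVTK cells. Lrp1, the receptor that clears alpha-2-macroglobulin, had 28.3 and 26.7 CPM in Control DMSO, 48.8 and 42.9 in Control GANC, 61.6 and 60.5 in HSVTK DMSO and 49.9 and 44.1 in HSVTK GANC. It fell by 0.38 ± 0.08 on the log2 scale in HSVTK cells (adjusted p = 0.00105) and rose by 0.74 ± 0.09 in Control cells (adjusted p = 5.32e-06). Its chaperone Lrpap1 did the reverse, at 0.23 (adjusted p = 0.0183) and -0.42 (adjusted p = 0.00104). Complement C3, which shares the fold of A2m, had 0 and 2 counts in Control DMSO, 4 and 4 in Control GANC, 10 and 28 in HSVTK DMSO and 2 and 1 in HSVTK GANC. The closest paralog, Mug1, had at most 2 counts in a library.

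Loxl2, a lysyl oxidase that cross-links collagen, was the relative of Aoc3 with the lowest p for the difference of responses. It had 1.11 and 1.09 CPM in Control DMSO, 3.42 and 2.29 in Control GANC, 7.38 and 7.33 in HSVTK DMSO and 1.43 and 1.61 in HSVTK GANC. It fell by 2.27 ± 0.23 in HSVTK cells (adjusted p = 2.02e-08) and rose by 1.38 ± 0.26 in Control cells (adjusted p = 0.00143). Maoa and Paox, which oxidise monoamines and polyamines, fell in HSVTK cells by 0.35 and 0.60 and stood at 0.02 and -0.05 in Control cells. Aoc2, the neighbour and closest paralog of Aoc3, stood at -0.05 (adjusted p = 0.881) and -0.26 (adjusted p = 0.513).

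Of 8 tested glutamate receptor genes besides Grin1, 1 fell and 1 rose in HSVTK cells. In Control cells edgeR and DESeq2 called 0, and 1 was lower at an unadjusted p below 0.05. Gria3, an AMPA receptor subunit, rose by 1.49 ± 0.50 in HSVTK cells (adjusted p = 0.0244), and Grik5, a kainate receptor subunit, fell by 0.82 (adjusted p = 0.000883). Grin2d and Grin2b, partners of Grin1, stood at 0.09 and 1.11 in HSVTK cells (adjusted p = 0.883 and 0.0518).

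In the COPI coat, 3 of 11 tested relatives of Copz2 fell in HSVTK cells. In Control cells edgeR and DESeq2 called 0, and at an unadjusted p below 0.05 there were 3 lower and 1 higher. Copg2, a gamma subunit, fell by 0.53 ± 0.08 in HSVTK cells (adjusted p = 1.42e-05), and Arfgap2 and Gbf1 stood at 0.22 (adjusted p = 0.0647) and 0.00 (adjusted p = 0.986). Copz1, the paralog of Copz2, had a mean of 212 to 254 CPM per group and stood at -0.05 in HSVTK cells (adjusted p = 0.592) and -0.14 in Control cells (adjusted p = 0.152). Among potassium channel subunits, Kcng3 and Kcns3 had a difference of responses, HSVTK minus Control, of 2.48 (adjusted p = 0.0366) and 1.01 (adjusted p = 0.0427).

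Sncg, the gamma-synuclein, went against Sncb: it rose by 0.81 ± 0.18 in HSVTK cells (adjusted p = 0.000873) and stood at 0.04 in Control cells (adjusted p = 0.943). Sncaip, a synuclein-binding protein, did not pass in either cell group, at 0.60 in HSVTK cells. Nrxn2, a neurexin, had a difference of responses, HSVTK minus Control, of -0.64 (adjusted p = 0.0449), and Nxph3 did not pass, at -0.67 in HSVTK cells. Of the elastases and pancreatic proteases only 3 besides Cela1 were tested, Cela2a and Ctrl among them, and edgeR and DESeq2 called 0 of them in either cell group. At an unadjusted p below 0.05, 1 was lower in HSVTK cells.

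Ppp1r2, a further inhibitor of protein phosphatase 1, fell by 0.33 ± 0.06 in HSVTK cells (adjusted p = 0.000219) and rose by 0.22 ± 0.06 in Control cells (adjusted p = 0.0341). The catalytic subunit Ppp1cc fell by 0.35 and the inhibitor Ppp1r11 rose by 0.52 in HSVTK cells, and neither passed in Control cells. Ppp1r1a, the paralog of Ppp1r1b, fell by 0.38 in Control cells (adjusted p = 0.0465) and stood at 0.21 in HSVTK cells (adjusted p = 0.199). Of 23 tested tetraspanins besides Tspan1, 7 fell and 5 rose in HSVTK cells. Tspan9 fell by 1.03 ± 0.11 there (adjusted p = 3.03e-08) and rose by 0.45 ± 0.11 in Control cells (adjusted p = 0.00986). Tspan13 fell by 0.67 and Cd63 and Tspan6 rose by 0.25 and 0.70 in HSVTK cells, and Cd63 fell by 0.39 in Control cells.

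**Figure D4:**
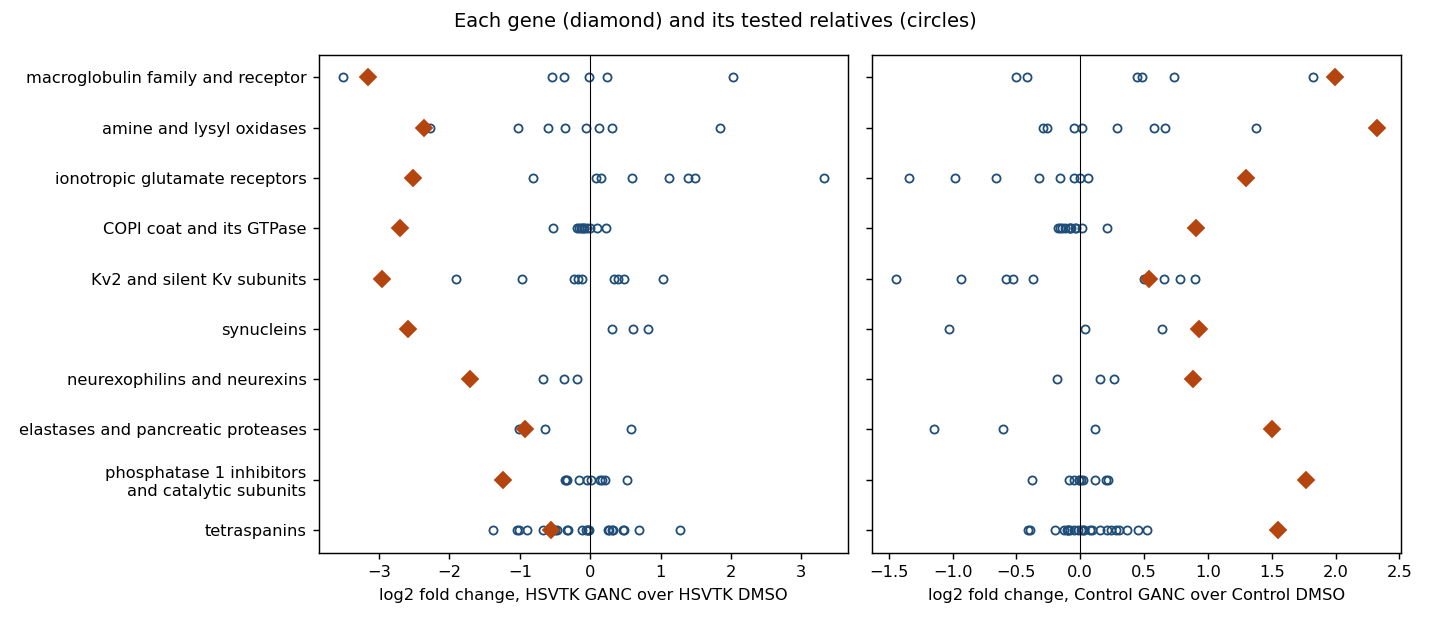
Log2 fold change with GANC in HSVTK cells (left) and Control cells (right) for each of the 10 genes (diamonds) and the tested relatives of its family (circles). In the COPI coat, Copz2 lies at -2.70 on the left. The median of its 11 tested relatives is -0.095 there, and Copg2 lies at -0.53.

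Genes on lists of 2 signalling pathways were tested as well. These lists were drawn up with earlier results of these data known, so their counts are a description. Egln3 and Bnip3 are also among the strongly opposed genes listed below. Of 20 tested genes of the hypoxia-inducible factor list, 14 fell and 3 rose in HSVTK cells, with a median of -0.66 (of all tested genes 15.2% were lower and 13.3% higher), and 9 rose and 2 fell in Control cells, with a median of 0.29 (4.73% higher and 3.35% lower). The prolyl hydroxylase Egln3 fell by 2.70 and rose by 1.13, the mitophagy receptor Bnip3 fell by 2.37 and rose by 1.03, and the glucose transporter Slc2a1 fell by 1.21 and rose by 0.55. Of 14 genes of the STAT3 pathway, 5 fell and 4 rose in HSVTK cells and 2 rose in Control cells, against the same shares. The receptor chains Il6st and Lifr fell by 0.72 and 0.71 in HSVTK cells and stood at 0.17 and -0.05 in Control cells. The STAT3-induced kinase Pim1 fell by 0.71 and rose by 0.25.

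The 10 genes lie on 7 chromosomes. Of the 20 nearest tested neighbours, 1 on each side in the gene order of GENCODE vM21, 3 fell and 5 rose in HSVTK cells (15.2 and 13.3% of all tested genes), and 5 rose and 0 fell in Control cells (4.73 and 3.35%). At an unadjusted p below 0.05, 1 fell there, and with DESeq2 0 did. Shmt2 and Lrp1 flank Nxph4, and beyond Shmt2 follows Ndufa4l2. Lrp1 was the only nearest neighbour that fell in HSVTK cells and rose in Control cells. Shmt2, a mitochondrial enzyme of serine breakdown, rose in both, by 0.27 (adjusted p = 0.000806) and 0.21 (adjusted p = 0.0226). Beside A2m, the GABA transporter gene Slc6a12 stood at 0.78 (adjusted p = 0.491) and M6pr at 0.03 (adjusted p = 0.718) in HSVTK cells.

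Of 13463 tested genes whose mean CPM was 1 or more, 27 were lower by at least 1 on the log2 scale in HSVTK cells and higher by at least 1 in Control cells with GANC, and 10 had the reverse. Of the 27, 4 were among the 10 genes: A2m (2nd by the difference of both), Aoc3 (3rd), Grin1 (6th) and Ppp1r1b (12th). With the HSVTK treatment labels exchanged, all 27 would be higher by at least 1 in both cell groups and none would be opposed. Just outside were Sncb, Copz2 and Nxph4, with 0.93, 0.91 and 0.88 in Control cells, and Cela1 with -0.93 in HSVTK cells. First of the 27 was Ndufa4l2, a hypoxia-induced protein of mitochondria, with 2.80 and 2.63 CPM in Control DMSO, 12.7 and 10.6 in Control GANC, 28.1 and 29.0 in HSVTK DMSO and 1.27 and 2.87 in HSVTK GANC. The next genes outside the 10 were the kinase Aurkc, Egln3, Loxl2, the transcription factor Irf8, the phosphoglucomutase Pgm1, Bnip3, Ndrg2, the acid phosphatase Acp5, Coro2a, the immunoproteasome subunit Psmb9 and Fgf11. Their changes ranged from -2.81 (Aurkc) to -1.32 (Fgf11) in HSVTK cells and from 1.03 (Bnip3) to 1.45 (Coro2a) in Control cells.

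The genes whose log2 CPM followed the mean profile of the 10 most closely over the 8 libraries were Lss and Dhcr7, enzymes of cholesterol synthesis, with r of 0.998 and 0.996, Igsf3 and the calpain Capn5 with 0.994 each, and the lipoprotein receptor Scarb1 and Sipa1l2 with 0.991 each. Lss stood at -0.59 in HSVTK and 0.37 in Control cells, and Capn5 at -1.47 and 0.85. Most like A2m were the proton pump subunit Atp6v0a4 (0.992), Loxl2 (0.988) and Ttc7 (0.986), and most like Aoc3 were the sterol exporter Abcg1 (0.982), Scarb1 (0.977) and Pgrmc2 (0.973). In all, 418 of 13453 genes had an r of at least 0.9 with the mean profile, over 8 points that share their libraries.

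Markers of tissues where the 10 genes are usually found were set beside them, as sums of CPM without the 10 genes themselves. In bulk RNA, fewer cells of a type and less RNA per cell cannot be told apart. The 13 neuron markers summed to 636 to 647 CPM in Control DMSO, 566 to 599 in Control GANC, 645 to 658 in HSVTK DMSO and 589 to 644 in HSVTK GANC, with Slc17a6 at 0. Of the 10 tested neuron markers, 2 fell and 2 rose in HSVTK cells (of all tested genes 15.2% were lower and 13.3% higher). The 9 hepatocyte markers summed to 1.46 to 2.78 CPM in any library, with Ttr, Serpina1a and Tat at 0, and the 7 adipocyte markers to 0.343 to 1.70, with Lep and Cfd at 0. The 7 pancreatic acinar markers summed to 79.8 to 96.7, with Amy2a5 and Cel at 0. Only 2 acinar, 1 hepatocyte and 1 adipocyte marker had counts enough to be tested, so these sums rest on few genes. Neuron and acinar sums were not ordered as the 10 genes were.

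Some sums followed the 10 genes in part. The 10 epithelial markers summed to 352 to 357 CPM in Control DMSO, 416 to 432 in Control GANC, 439 to 460 in HSVTK DMSO and 393 to 403 in HSVTK GANC. The 9 primitive endoderm markers summed to 47.6 to 50.5, 59.4 to 62.9, 71.0 to 73.6 and 53.3 to 57.5 in the same order of groups. Their median log2 change with GANC was -0.34 in HSVTK and -0.77 in Control cells, and that of the difference of responses was 0.33. The sum, which abundant markers weigh most, thus followed the 10 genes while the median marker did not. The 10 stem cell markers summed to 5270 to 5350, 5580 to 5840, 6510 to 6620 and 5590 to 5760. The 13 smooth muscle and fibroblast markers were at 13.1 to 14.3, 17.6 to 19.8, 24.5 to 28.8 and 23.6 to 24.1. In HSVTK cells 3 of 10 epithelial markers fell and 1 rose, and 2 of 9 primitive endoderm markers fell and 1 rose. Of the stem cell markers 6 of 10 fell. Only 7 smooth muscle and fibroblast markers were tested, of which 1 fell. Of all tested genes 15.2% were lower and 13.3% higher in HSVTK cells. None of these 4 lists had a marker at 0 throughout. Their part in the values of the 10 genes was not tested.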

How the data were processed

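RNA sequencing of 8 libraries in 4 groups was grouped by the labels' titles. The authors deposited raw counts per Ensembl gene, whole numbers with a gene length, and FPKM made from the same counts: all 456080 FPKM values equal counts per length and library total within 1e-05. Per the submitters' processing notes, the build GRCm39 and DESeq2 1.40.2, featureCounts 2.0.1, HISAT2 2.1.0 and fastp 0.23.2 were used, without roles. The sources used here do not state strand, the handling of multi-mapping reads or which annotation release was used.

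Counts were fitted with edgeR 4.0.16 (quasi-likelihood F test, TMM, filterByExpr, a mean per group, 4 residual degrees of freedom, R 4.3.3), which tested 17976 genes, and p-values were adjusted by Benjamini-Hochberg with a threshold of 0.05. SEs were derived from log2 fold changes and F statistics. The 10 genes and all lists were chosen with earlier results of these data known. The test of the 10 genes used HSVTK minus Control averaged over treatments, which is independent of the drug comparisons only as far as errors are equal between groups, and low counts make them unequal. DESeq2 1.42.0, limma 3.58.1 on log2(FPKM + 1) and log2(FPKM + 0.1), library size scaling, no filter, a replicate block, single comparisons and left-out libraries were the alternatives. The FPKM scales with a pseudocount understate changes of low genes. The procedure was tested on simulated data. Genes outside the 10 were named by rules: the most alike by correlation, opposed genes past 1 in both drug comparisons (up to 12), the 3 lowest p for the difference of responses per list plus closest paralogs, and nearest neighbours. Not every gene that a rule allows is named, and a few are not reported here. Neighbours and overlaps came from GENCODE vM21 on GRCm38, which is not the build in the notes, so their gene coordinates are not printed. The promoter windows are printed with GRCm38.p6 coordinates, which are not on the build in the notes either. Mouse C5 and Cpamd8 had no matching symbol.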

Additional observations from a re-analysis of the deposited data

Results flagged for a closer look

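For 8 of the 10 genes both GANC libraries lay below both DMSO libraries in HSVTK cells and above them in Control cells, a pattern that 11.8% of tested genes had and that the choice of genes fixed. The log2 response in HSVTK cells minus that in Control cells was -5.15 for A2m, -4.69 for Aoc3, -3.82 for Grin1, -3.61 for Copz2, -3.52 for Sncb, -3.01 for Ppp1r1b, -2.58 for Nxph4 and -2.43 for Cela1. These values are a description, because the genes were chosen on both responses. Zscan4c was higher in the libraries labelled HSVTK GANC, the reverse of the depletion that the drug is meant to bring. The reason was not tested. With the HSVTK treatment labels exchanged, the difference would be 1.16 for A2m and 0.03 for Aoc3. It would range from -1.0 to 2.42 over the 10 genes, and the responses would not be opposed. The difference was not tested for these genes. Kcng1 and Tspan1 are absent since their libraries overlapped in 1 of the comparisons.

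Among relatives and signalling genes, the difference of responses was tested with edgeR over all genes and passed for 28 of the named ones. Apart from closest paralogs, these were named for the lowest p of their list in this same difference. The naming thus largely fixed this count, and nothing is read from it. Of all 84 tested relatives, 19 were lower and 15 higher (14.0 and 11.6% of all tested genes). The log2 response in HSVTK minus that in Control cells was below 0 for C3 (-5.33), Egln3 (-3.83), Loxl2 (-3.65), Bnip3 (-3.40), Slc2a1 (-1.76), Tspan9 (-1.49), Lrp1 (-1.11) and Pim1 (-0.96), and for Il6st (-0.89), Tspan13 (-0.76), Grik5 (-0.66), Lifr (-0.66), Nrxn2 (-0.64), Ppp1r2 (-0.55), Paox (-0.55), Copg2 (-0.54), Ppp1cc (-0.47) and Maoa (-0.37). It was above 0 for Gria3 (2.83), Kcng3 (2.48), Kcns3 (1.01), Sncg (0.78), Lrpap1 (0.65), Cd63 (0.64), Tspan6 (0.62), Ppp1r11 (0.60), Ppp1r1a (0.59) and Arfgap2 (0.34). The value of C3 rests on at most 2 counts in each Control DMSO and HSVTK GANC library and depends on the prior count of the fit.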

How the results depend on the processing

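In the average of both treatments edgeR called 2855 genes higher and 3288 lower in HSVTK cells, against 3462 and 2740 with library size scaling, 3020 and 2226 with limma on log2(FPKM + 1), and 2560 and 2957 with DESeq2, so the balance of directions turned with the scaling and with limma. Of the 10 genes 4 to 6 were called in all settings, always higher. With GANC in Control cells 1453 genes were called, against 190 and 251 with limma on log2(FPKM + 1) and log2(FPKM + 0.1), 942 with only these 4 libraries and 433 to 2010 with 1 library left out. In HSVTK cells 5119 were called, against 3313 to 5627 with 1 library left out. The cause was not tested. Copz2 changed sign between cell groups: 0.0042 with library size scaling, 0.12 and 0.17 with limma, 0.024 with a replicate block and -0.37 to 0.64 with 1 library left out. So did Kcng1, at 0.076 and 0.11 with limma and -0.70 to 0.19 with 1 library left out. The drop of Tspan1 in HSVTK cells ranged from -1.0 to 0.064, and the change of Kcng1 in Control cells from -0.11 to 1.02, with 1 library left out.

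Libraries with the same replicate number did not deviate together (correlations of -0.0636 to 0.0243 between groups over 13463 genes), so the numbers do not pair them. With the number as a replicate block, 5941 genes were called between cell groups, 4932 with GANC in HSVTK cells, 1339 in Control cells and 4433 for the difference, and 6 of the 10 genes. All of the 10 genes but A2m, Grin1, Nxph4, Cela1 and Sncb had under 100 counts in every library, which limits their precision.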
